A study of Danio rerio with 6 samples.

Results

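Solute carrier (SLC) transporters were followed in zebrafish embryos that carry the human fusion oncogene EWS-FLI1 under a heat shock promoter, Tg(HSP:EWS-FLI1), and in wild-type AB embryos. A probe set was a member when it was annotated to exactly 1 gene whose symbol begins with slc, a family number, the letter a and a member number. This rule used no measured value and found 150 of the 15502 probe sets tested, for 130 of the 8793 genes measured, in 39 families. A further 5 probe sets that list an SLC gene together with other genes were left out. Both groups had 3 arrays, each hybridised with RNA of 40 pooled whole embryos. At 50% epiboly, early in gastrulation, all embryos received the same heat shock of 30 min at 39 °C, and RNA was taken 2 h later, after incubation at 28.5 °C. EWS-FLI1 is the fusion protein of Ewing sarcoma, and the heat shock promoter of this line is not one of a single cell type. Its own level was not examined here, and the AB embryos carried no transgene but shared the heat shock.

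SLC proteins are membrane carriers that move nutrients, ions, metals and metabolites across the plasma membrane and the membranes of organelles. Families are numbered largely by sequence likeness, and members of a family often share a type of substrate: SLC2 proteins carry sugars, SLC7 proteins amino acids, SLC25 proteins metabolites across the inner mitochondrial membrane, and SLC30 and SLC39 proteins zinc out of and into the cytosol. In the early zebrafish embryo nutrients and iron come from the yolk, so that carriers of the layer bordering the yolk act beside those that each embryonic cell uses.

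All values are log2 RMA values, in which 1 unit is a 2-fold difference, and differences are EWS-FLI1 minus control. RMA is a method that corrects background, normalizes between arrays and combines the probes of a set. A probe set is described as risen or fallen when limma's p-value, Benjamini-Hochberg adjusted over all 15502 probe sets, was under 0.05. A background reference of 4.19 was the 95th percentile of the means of 44 bacterial and tag control probe sets, and values at or under it may be mostly background. Signals of different probe sets are not comparable as amounts of RNA. Array medians lay between 5.07 and 5.12, and the number of arrays limits the precision. Among markers of the embryo's layers, 10 of 11 measured enveloping layer genes lay above the background reference in at least 1 group. So did 7 of 10 yolk syncytial layer genes, against 1 of 5 blood cell genes and 2 of 6 neuronal genes. Of the probe sets on these lists, limma called 1 of 12 for the enveloping layer (8.33%) and 1 of 11 for neurons (9.09%). These shares lay beside 11.8% of all probe sets. Both called probe sets, of anxa1c and elavl3, were lower in EWS-FLI1 embryos. The other probe sets of elavl3 were not called, with differences from -0.13 to 0.00. In these whole-embryo samples, fewer cells of a type and less RNA per cell cannot be told apart. As a sign of RNA quality, the signal at the 3′ end of GAPDH exceeded that at its 5′ end by 1.21 ± 0.10 on EWS-FLI1 arrays and by 0.83 ± 0.12 on control arrays, whereas for acta1 the same value was -0.42 ± 0.07 on EWS-FLI1 arrays and -0.11 ± 0.27 on control arrays (SD over 3 arrays). The part of RNA quality in the results was not tested.

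The iron exporter gene slc40a1 rose most among the SLC members, 6.45-fold, followed by the glucose transporter gene slc2a3a at 2.24-fold, and the other differences were below 2-fold. Both folds are set against control means within the background reference (3.70 for slc40a1 and 3.18 for slc2a3a), so that their sizes depend on the background. In all, 9 members rose, 8 fell and 133 were not called. The called share of 11.3% lay beside 11.8% of all probe sets, so that transporters as a class were called about as often as the array as a whole. By direction, 6% of the members rose, beside 5.38% of all probe sets, and 5.33% fell, beside 6.46%. At an unadjusted limma p under 0.05, 16 members were higher and 28 lower, beside 1762 higher and 2037 lower of all 15502 probe sets. Counts at that threshold given below for single classes and lists stand beside these. The median difference was -0.01 over the members and 0.00 over all probe sets, and 105 of the 150 members differed by less than 0.25 in either direction. The largest fall, of the fatty acid transport gene slc27a2a, was 0.76, whereas over all probe sets falls reached 3.43. Groups did not overlap at 51 members (34%, beside 29% of all probe sets), of which 23 were higher and 28 lower in EWS-FLI1 embryos.

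**Figure D1:**
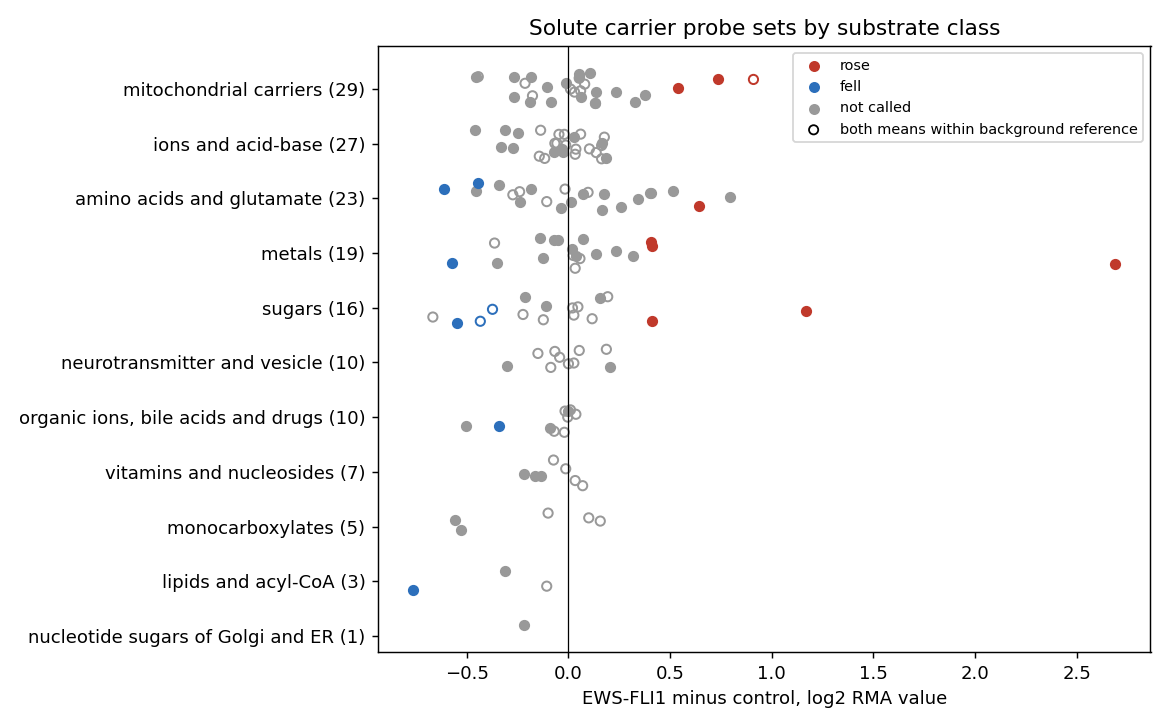
Difference between EWS-FLI1 and control means (log2 RMA value, x axis) of the 150 SLC probe sets, 1 point each, in rows by substrate class with the number of probe sets in parentheses. Points are spread vertically only to separate them; risen members are red, fallen ones blue and the others grey, and open circles have both means within the background reference. Most points lie near 0, and slc40a1 (2.69) in the metal class and slc2a3a (1.17) in the sugar class stand to the right.

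Among 19 probe sets of metal transporters, 3 rose and 1 fell (21.1% called, beside 11.8% of all probe sets). This share rests on few probe sets, and its difference from the whole array was not tested. slc40a1 encodes ferroportin, the iron exporter that was found through the zebrafish mutant weissherbst, in which iron fails to reach the embryo from the yolk. Its values were 6.69, 6.27 and 6.20 on the EWS-FLI1 arrays, against 3.55, 3.55 and 3.99 on the control arrays. The groups were far apart. The difference was 2.69 (SE 0.16, limma adjusted p = 3.1e-05). Of the yolk syncytial layer markers, 0 of 11 probe sets were called in limma's fit, beside 11.8% of all probe sets. At an unadjusted p under 0.05, 2 differed, hnf4a by -0.50 and hhex by 0.50. The linear signal, summed over the brightest probe set of each of the 10 genes, was 14275.8 to 14502.4 on EWS-FLI1 arrays and 13748.6 to 17260.3 on control arrays. This sum mostly reflects the brightest probe sets, such as that of apoeb (means of 12.67 in EWS-FLI1 and 12.73 in control samples). mxtx2, a defining factor of that layer, had means of 3.32 in EWS-FLI1 and 3.41 in control samples, within the background reference. The part of this layer in the rise of slc40a1 was not tested. Whole-embryo samples do not show which cells held its RNA. The other iron-related member of the class, slc11a2, which carries iron into cells, had means of 7.28 in EWS-FLI1 and 7.42 in control samples and was not called (difference -0.14, adjusted p = 0.349).

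Zinc carriers moved in both directions. slc39a6 encodes ZIP6, also known as LIV-1, which in the zebrafish gastrula is known as a target of Stat3 that organizer cells need for their migration. It had 8.44, 8.31 and 8.33 on EWS-FLI1 arrays, against 9.10, 8.89 and 8.81 on control arrays. All EWS-FLI1 values lay below all control values, and the fall was 0.57 (SE 0.10, limma adjusted p = 0.00726). stat3 itself, which is no SLC gene and was singled out after its value was seen, fell, with means of 5.22 in EWS-FLI1 and 6.50 in control samples (difference -1.28, SE 0.09, adjusted p = 7.6e-05). A link between the values of stat3 and slc39a6 was not tested. slc39a9, which encodes the zinc carrier ZIP9 of the secretory pathway, rose by 0.41 (SE 0.10, adjusted p = 0.0352) and slc30a9, a carrier of the zinc export family, also by 0.41 (SE 0.09, adjusted p = 0.0185). In both genes other probe sets were not called. slc39a3, a zinc importer of the plasma membrane, stood just outside the threshold, with 5.56, 5.51 and 5.64 in EWS-FLI1 against 5.80, 5.88 and 6.09 in control samples (difference -0.35, adjusted p = 0.0549). The remaining zinc and copper carriers were not called. The widest of their differences were -0.36 for slc39a13 (adjusted p = 0.115), with groups apart and both means within the background reference, and 0.32 for slc39a5 (adjusted p = 0.160), with groups that overlap. The genes slc30a5, slc30a6 and slc30a7, which load zinc into the secretory pathway, differed by 0.07, 0.02 and 0.14, and the copper importer gene slc31a1 by 0.23 and 0.04 in its 2 probe sets.

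**Figure D2:**
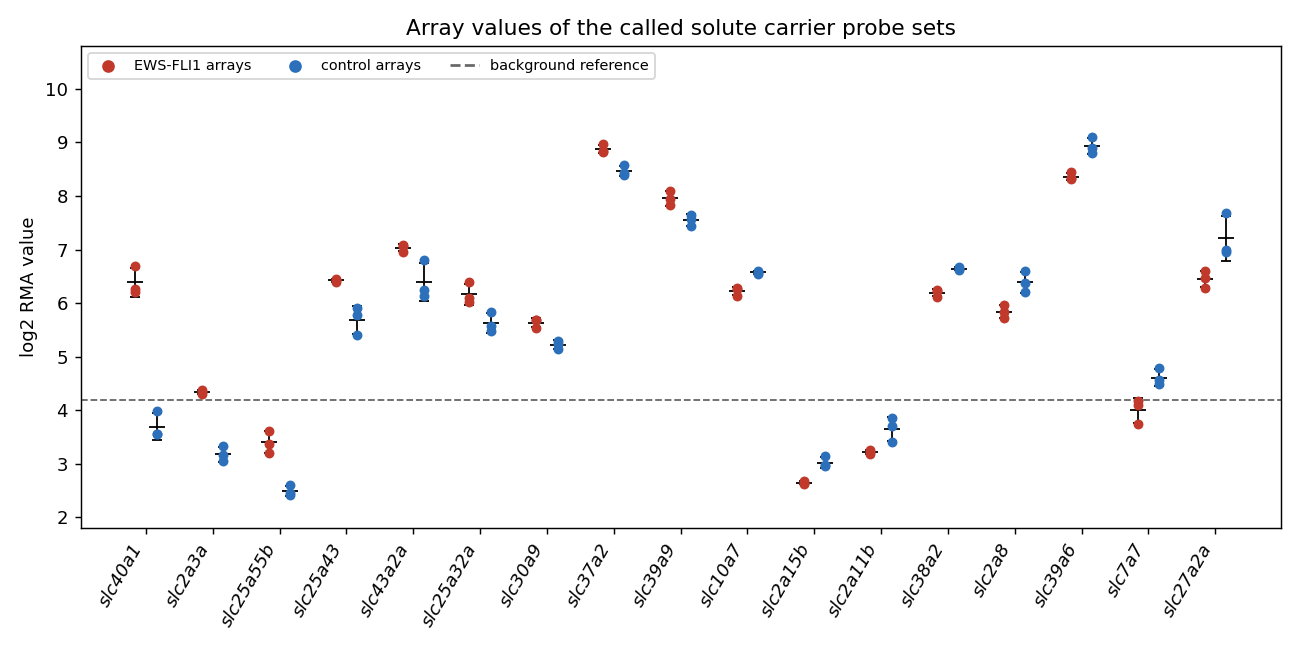
Array values (log2 RMA, y axis) of the 17 called SLC probe sets, ordered by difference, with EWS-FLI1 arrays in red left of control arrays in blue; black bars give the mean ± SD (n = 3 each) and the dashed line the background reference of 4.19. The groups do not overlap in any of the 17, and the distance is widest for slc40a1, whose EWS-FLI1 values lie between 6.20 and 6.69 and whose control values lie between 3.55 and 3.99.

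The sugar class, set by family number and not by each member's own substrate, had 5 called members of 16 (31.2%, beside 11.8% of all probe sets). Of these 5, 2 rose and 3 fell, and 4 were among the 9 probe sets of the SLC2 family of facilitative sugar carriers (44.4%). These shares rest on few probe sets, 10 of the 16 with both means within the background reference, and their difference from the whole array was not tested. slc2a3a, related to the high-affinity glucose carrier GLUT3 of neurons, had 4.38, 4.35 and 4.31 on EWS-FLI1 arrays, against 3.05, 3.16 and 3.33 on control arrays. The EWS-FLI1 values were tightly grouped just above the background reference and the control values lay within it. Values of both groups lay below 4.67, the highest mean among the 44 bacterial and tag control probe sets. The rise was 1.17 (SE 0.10, limma adjusted p = 1.8e-04). slc2a8, related to the intracellular carrier GLUT8, had 5.72, 5.83 and 5.97 in EWS-FLI1 samples and 6.59, 6.37 and 6.20 in control samples, a fall of 0.55 (SE 0.12, adjusted p = 0.0193). It was the only fallen SLC2 member whose means lay above the background reference. slc2a11b and slc2a15b, which in medaka are needed for pigment cells of the body surface, fell by 0.43 (adjusted p = 0.0465) and 0.37 (adjusted p = 0.0252), both with means within the background reference in each group, and slc2a11b was not called under any of 3 other scalings of the arrays (adjusted p = 0.0527 to 0.0705). The called slc2a11b values were 3.22, 3.19 and 3.25 in EWS-FLI1 against 3.70, 3.85 and 3.41 in control samples. slc2a2, the glucose carrier of liver and pancreas, had both means within the background reference and was not called (-0.12, adjusted p = 0.506). Outside the SLC2 family, slc37a2, which exchanges sugar phosphates across the endoplasmic reticulum membrane, had 8.82, 8.97 and 8.84 in EWS-FLI1 and 8.57, 8.43 and 8.39 in control samples. The groups lay close but apart, and the rise was 0.41 (SE 0.09, adjusted p = 0.0200).

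Of 23 probe sets of the amino acid and peptide class, set by family number, 1 rose and 2 fell (13% called, beside 11.8% of all probe sets). The class includes slc7a6os, which is not a transporter. slc43a2a, related to the large neutral amino acid carrier LAT4, had 6.96, 7.07 and 7.08 on EWS-FLI1 arrays and 6.13, 6.25 and 6.80 on control arrays. Control replicate 3 came close to the EWS-FLI1 values, and the rise was 0.64 (SE 0.16, limma adjusted p = 0.0345). slc7a7, a light chain that exchanges cationic for neutral amino acids, had 3.74, 4.17 and 4.09 in EWS-FLI1 against 4.78, 4.49 and 4.56 in control samples, a fall of 0.61 (SE 0.13, adjusted p = 0.0189), with the EWS-FLI1 mean within the background reference. slc38a2 encodes SNAT2, a sodium-coupled carrier whose gene is known to respond to amino acid shortage. It had 6.12, 6.25 and 6.22 in EWS-FLI1 and 6.67, 6.63 and 6.62 in control samples, with little spread in either group, and fell by 0.44 (SE 0.08, adjusted p = 0.0094).

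A pair of carriers of cationic amino acids, slc7a1b and slc7a3a, had a larger SD among the control arrays than among the EWS-FLI1 arrays. slc7a1b, related to the cationic amino acid carrier CAT1, had 7.28, 7.31 and 7.30 in EWS-FLI1 samples and 6.15, 7.12 and 6.24 in control samples. Control replicate 2 stood near the EWS-FLI1 arrays and the other two were about 1 unit lower, and the difference of 0.79 was not called (SE 0.22, adjusted p = 0.0550). slc7a3a of the same group had 7.63, 7.67 and 7.76 in EWS-FLI1 against 8.02, 8.65 and 7.76 in control samples (difference -0.46, adjusted p = 0.197). The heavy chain that SLC7 light chains need at the cell surface is encoded by slc3a2a and slc3a2b. slc3a2b had 9.70, 9.59 and 9.73 in EWS-FLI1 and 9.48, 9.51 and 8.82 in control samples (difference 0.40, adjusted p = 0.195). The light chain gene slc7a8a had 9.16, 9.21 and 9.38 in EWS-FLI1 against 9.03, 9.16 and 8.34 in control samples in its brighter probe set (difference 0.41, adjusted p = 0.247). Both were lowest in control replicate 3, as was the second probe set of slc7a8a at 7.91. For slc3a2a the means were 8.64 in EWS-FLI1 and 8.47 in control samples (difference 0.17, adjusted p = 0.277). These 5 genes were singled out after their values were seen.

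Mitochondrial carriers of the SLC25 family formed the largest class, with 29 probe sets for 25 genes and a median difference of 0.05. In limma's fit 3 rose and 0 fell (10.3% called, beside 11.8% of all probe sets). At an unadjusted p under 0.05, 5 were higher and 3 lower. slc25a43, a carrier without an established substrate, had 6.43, 6.40 and 6.45 on EWS-FLI1 arrays, against 5.90, 5.78 and 5.40 on control arrays. The EWS-FLI1 values were almost equal, and the rise was 0.73 (SE 0.13, limma adjusted p = 0.00726). slc25a32a, related to the mitochondrial folate and flavin carrier, had 6.39, 6.09 and 6.02 in EWS-FLI1 and 5.84, 5.48 and 5.57 in control samples, a rise of 0.54 (SE 0.13, adjusted p = 0.0308). slc25a55b had 3.62, 3.37 and 3.21 in EWS-FLI1 against 2.45, 2.60 and 2.42 in control samples, and its rise of 0.91 (SE 0.12, adjusted p = 0.00189) took place wholly within the background reference. slc25a16 missed the threshold narrowly, with a difference of 0.33 (adjusted p = 0.0504).

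Carriers with central metabolic roles were among the uncalled mitochondrial members. The phosphate carrier gene slc25a3b had means of 11.84 in EWS-FLI1 and 11.94 in control samples (difference -0.11, adjusted p = 0.561), and slc25a3a had 5.43 in EWS-FLI1 and 5.89 in control samples (difference -0.46, adjusted p = 0.0757). For the citrate carrier gene slc25a1a the difference was -0.27 (adjusted p = 0.0757), for the carnitine carrier gene slc25a20 -0.18 (adjusted p = 0.426) and for the aspartate and glutamate carrier gene slc25a12 0.13 (adjusted p = 0.443). slc25a37, which brings iron into mitochondria of developing red cells, had both means within the background reference (difference 0.05, adjusted p = 0.786). These 6 were chosen for their known roles after the values were seen.

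Of 3 fatty acid transport genes, slc27a2a, which activates very long-chain fatty acids, fell and 2 were not called (33.3% called, beside 11.8% of all probe sets). Its values were 6.29, 6.46 and 6.59 in EWS-FLI1 embryos, against 6.95, 6.99 and 7.69 in control embryos. Control replicate 3 stood above the other arrays, and the fall was 0.76 (SE 0.19, limma adjusted p = 0.0330). slc27a6 had means of 4.41 in EWS-FLI1 and 4.72 in control samples (difference -0.31, adjusted p = 0.0915). Among 10 probe sets of organic ion, bile acid and drug carriers, 1 was called (10%, beside 11.8% of all probe sets). The called gene was slc10a7, whose loss in humans causes a skeletal disorder. It had 6.26, 6.29 and 6.14 in EWS-FLI1 and 6.57, 6.60 and 6.55 in control samples, a fall of 0.34 (SE 0.08, adjusted p = 0.0296). In the family named for monocarboxylates, only some members of which carry lactate and pyruvate, 0 of 5 were called by limma, beside 11.8% of all probe sets. At an unadjusted p under 0.05, 2 were lower. Groups did not overlap at 1 lower and 1 higher member (40%, beside 29% of all probe sets). These shares rest on only 5 probe sets. slc16a9b came nearest, with 6.83, 6.71 and 6.95 in EWS-FLI1 against 7.57, 7.58 and 7.01 in control samples (difference -0.56, adjusted p = 0.0540), and it was called with a trended prior (adjusted p = 0.0476), with a robust prior (adjusted p = 0.05, just under the threshold), with array weights (adjusted p = 0.0168) and with control replicate 3 left out (adjusted p = 0.00275).

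The ion and acid-base class, set by family number, had 0 called members of 27 in limma's fit, beside 11.8% of all probe sets. It includes slc4a1ap, which is not a transporter. At an unadjusted p under 0.05, 5 were lower and 0 higher, beside 2037 lower and 1762 higher of all 15502 probe sets. Groups did not overlap at 7 members of the class (25.9%, beside 29% of all probe sets). Of the 27, 16 had both means within the background reference. Their differences ran from -0.46 to 0.19. The lowest, slc12a7b, a potassium-chloride cotransporter gene, had 4.21, 4.27 and 4.22 in EWS-FLI1 against 4.29, 5.15 and 4.64 in control samples (adjusted p = 0.168). The control arrays were widely spread, and it was called with control replicate 1 left out (adjusted p = 0.0364). The sodium-proton exchanger genes slc9a7 and slc9a8 differed by -0.27 (adjusted p = 0.186) and -0.31 (adjusted p = 0.0953). slc4a1a, the anion exchanger of red cells, lay within the background reference (difference 0.06, adjusted p = 0.786). The neurotransmitter and vesicle class, set by family number and not by each member's own substrate, had 0 calls by limma among 10 (0 also at an unadjusted p under 0.05). Of these 10, 8 had both means within the background reference, and the vesicular nucleotide transporter gene slc17a9b differed by -0.30 (adjusted p = 0.244). Vitamin and nucleoside carriers, likewise a class set by family number, had 0 calls by limma among 7 (0 also at an unadjusted p under 0.05). Both means of 4 of the 7 lay within the background reference. The riboflavin carrier gene slc52a2 differed by -0.22 (adjusted p = 0.264), with its EWS-FLI1 mean of 4.02 within the reference. In the nucleotide sugar family SLC35 the symbol rule found 1 member, slc35a4, which was not called either (-0.22, adjusted p = 0.187). The rule takes only symbols with the letter a, so SLC35 genes with another letter were not examined.

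Several probe sets were present for 17 of the 130 genes. In 14 of these 17 genes no probe set was called, in 3 some were called and others were not, and in 0 were all called in limma's fit. For slc30a9 the called probe set had 5.68, 5.54 and 5.69 in EWS-FLI1 and 5.23, 5.30 and 5.14 in control samples, while its other 2 lay within the background reference and differed by 0.06 and 0.03. The called probe set of slc39a9 had 7.83, 7.94 and 8.10 in EWS-FLI1 against 7.65, 7.43 and 7.57 in control samples. Its second probe set, also above the background reference, had 6.31, 6.49 and 6.31 in EWS-FLI1 against 6.33, 6.57 and 6.36 in control samples (difference -0.05, adjusted p = 0.837), so that the rise was not shared. For slc2a15b the fallen probe set had 2.68, 2.63 and 2.64 in EWS-FLI1 and 3.14, 2.96 and 2.97 in control samples, whereas the other differed by 0.19 (adjusted p = 0.389). 2 members are not transporters in spite of their symbols: slc7a6os is named for lying opposite slc7a6 and slc4a1ap for binding an anion exchanger. Neither was called, with differences of 0.18 and -0.06.

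Zebrafish hold many genes as a and b copies from a genome duplication, and 9 such pairs had both copies measured, 2 of them with a call. slc25a55b rose by 0.91 within the background reference, whereas slc25a55a had 8.21, 8.37 and 8.37 in EWS-FLI1 against 8.76, 8.42 and 8.57 in control samples (difference -0.27, adjusted p = 0.166). slc43a2a rose by 0.64, whereas slc43a2b had 6.85, 7.23 and 7.20 in EWS-FLI1 against 6.93, 7.15 and 7.16 in control samples (difference 0.01, adjusted p = 0.972). The a minus b value of each array separated the groups in 4 of the 9 pairs, of which 2, slc16a9 and slc25a3, had no call. It was 4.59 to 5.16 in EWS-FLI1 and 5.82 to 6.31 in control samples for slc25a55, and -0.16 to 0.11 in EWS-FLI1 and -0.90 to -0.36 in control samples for slc43a2. For slc16a9 it was -4.10 to -3.93 in EWS-FLI1 and -4.90 to -4.20 in control samples, and for slc25a3 -6.46 to -6.36 in EWS-FLI1 and -6.33 to -5.61 in control samples. Both means of slc16a9a lay within the background reference, so that slc16a9b was there set against a signal that may be mostly background. The exact two-sided permutation p was 0.1 for each of the 4, the smallest that 3 against 3 arrays can give, and 0.225 after Benjamini-Hochberg adjustment over the 9 pairs. Among all single probe sets, groups did not overlap at 29%, and no such share was taken over other gene pairs.

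**Figure D3:**
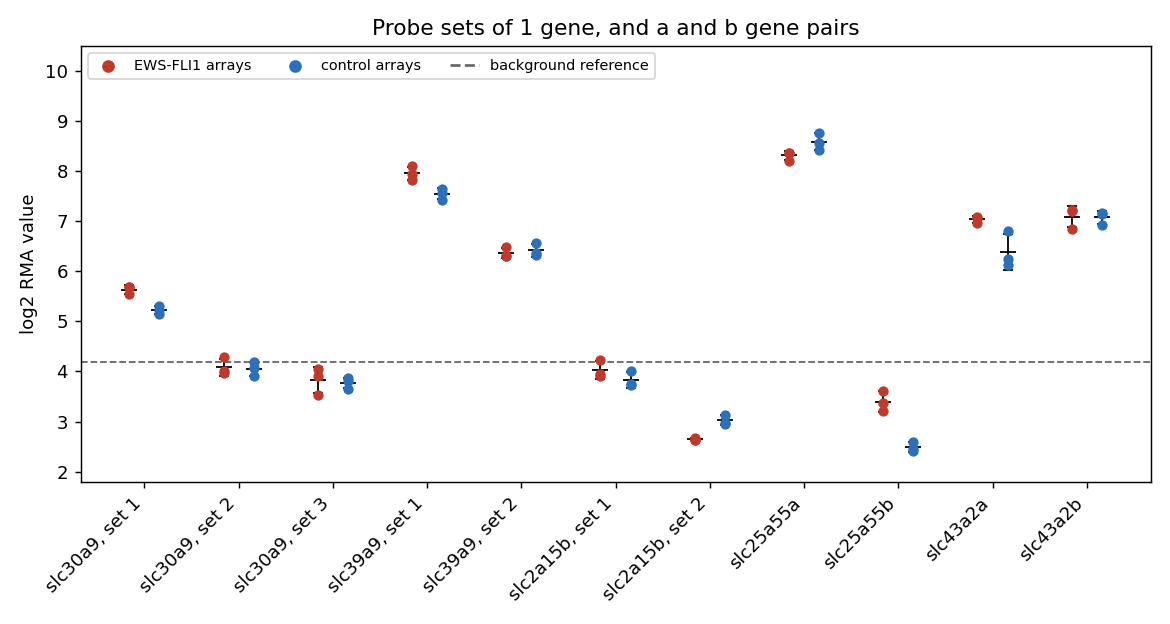
Array values (log2 RMA, y axis) of the 3 genes with called and uncalled probe sets, numbered from brighter to dimmer, and of the 2 a and b pairs with a call; EWS-FLI1 arrays in red stand left of control arrays in blue, with the mean ± SD (n = 3 each) in black and the background reference of 4.19 dashed. The second set of slc39a9 overlaps between groups, as does slc43a2b, while slc39a9's first set and slc43a2a lie higher in EWS-FLI1.

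By control level, 70 of the 150 members had a control mean within the background reference, and 3 of these rose and 2 fell (7.14% called, beside 6.31% of all probe sets in that range). The 3 were slc40a1, slc2a3a and slc25a55b, the largest rises among the called members, and 66 of the 70 were within the reference in both groups. The 80 members above it were split into 3 ranges at control means of 5.86 and 7.30. In the lowest range 3 of 27 rose and 1 fell (14.8% called, beside 15.4% of all probe sets between the same bounds). In the middle range 1 of 26 rose and 4 fell (19.2% beside 18.6%), and in the highest range 2 of 27 rose and 1 fell (11.1% beside 12.9%). The called share of the members was thus near that of all probe sets at each level. Groups did not overlap at 48.1% of the members in the lowest range, beside 32.8% of all probe sets. In the middle range these shares were 42.3% beside 39%, and in the highest 48.1% beside 34.6%. Within the background reference they were 20% beside 19%. They rest on few members, and their differences were not tested.

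**Figure D4:**
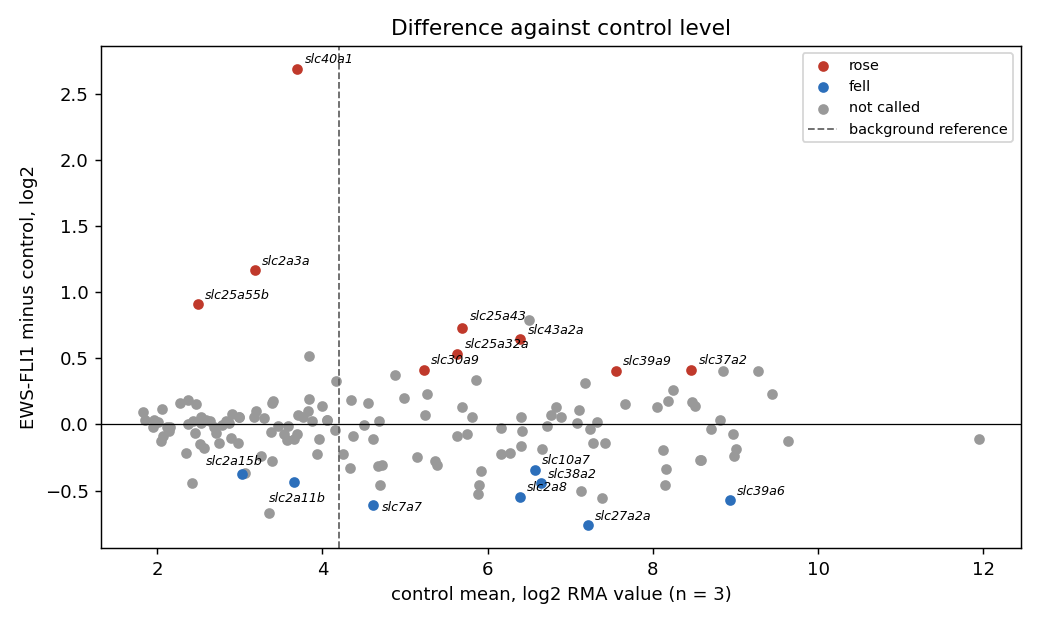
Difference between the groups (log2, y axis) against the control mean (log2 RMA value, n = 3, x axis) of the 150 SLC probe sets, with called members coloured and named and the background reference of 4.19 dashed. The 3 highest points lie left of the dashed line, and all but 2 of the fallen members lie right of it.

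Control arrays were more variable than EWS-FLI1 arrays, and this held for the array as a whole: the control SD was the larger in 103 of 150 members (68.7%), beside 67.4% of all probe sets. The members' median SD over EWS-FLI1 arrays was 0.10, against 0.15 over control arrays, and for all probe sets it was 0.09 over EWS-FLI1 arrays, against 0.14 over control arrays (n = 3 each). An SD above 0.3 was reached by 1 member among EWS-FLI1 arrays and by 21 among control arrays, of which 2 were called. In all 17 called members the groups did not overlap, and a further 34 had groups without overlap but no call. Together these are 51 members, or 34%, beside 29% of all probe sets.

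With EWS-FLI1 replicate 1 left out, 4 members rose and 1 fell, and with replicate 2 left out 5 rose and 3 fell. Without replicate 3, 4 rose and 3 fell. The called share in these 3 fits was 3.33%, 5.33% and 4.67% of the members, beside 5.70%, 7.13% and 6.28% of all probe sets. slc40a1, slc2a3a, slc25a55b, slc25a43 and slc39a6 kept their call with each array left out, with the replicate block, under the other scalings and priors and with array weights. When a change beyond 1.2-fold was tested, the first 3 of these were still called, whereas slc25a43 (adjusted p = 0.0647) and slc39a6 (adjusted p = 0.121) were not. In the fit without dim probe sets, slc40a1, slc25a43 and slc39a6 were called, but slc2a3a and slc25a55b were too dim to be tested. That filter used the mean over the arrays of both groups. slc40a1, with a control mean of 3.70 within the background reference, passed it only through its EWS-FLI1 values. Its call in that fit is therefore no separate support. The other 12 lost their call in at least 1 fit with an array left out. slc38a2 lost it without EWS-FLI1 replicate 1 alone (adjusted p = 0.055). For slc30a9 the call was lost when EWS-FLI1 replicate 1 or 3 was dropped (its adjusted p over all these refits reached 0.0873), for slc7a7 when either of those or control replicate 1 was (0.0673), and for slc2a8 when EWS-FLI1 replicate 1 or 2 or control replicate 1 was (0.0932). The other 8 lost it without any 1 of the 3 EWS-FLI1 arrays. For slc27a2a (0.141) and slc37a2 (0.0884) no control array had that effect. Control replicate 1 had it for slc2a15b (0.099), control replicates 1 and 2 each had it for slc10a7 (0.13), slc43a2a (0.127) and slc2a11b (0.15), and control replicates 2 and 3 each had it for slc25a32a (0.121) and slc39a9 (0.146).

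Other genes that move solutes across membranes were read from lists set by symbol, chosen with earlier results of these data known. Of their 78 probe sets, 2 rose and 3 fell, a called share of 6.41% beside 11.8% of all probe sets, with a median difference of -0.03. Counts of single lists given below stand beside the same 11.8%, rest on few probe sets and were not tested against it. atp2b2, a calcium pump of the plasma membrane and the 1 of 16 probe sets of such P-type pumps that was called, had 5.08, 4.71 and 4.90 in EWS-FLI1 against 3.58, 3.28 and 3.59 in control samples, a rise of 1.41 (SE 0.13, limma adjusted p = 2.9e-04) from control values within the background reference. slco1d1, of a family of organic anion transporters whose symbols begin with slco (1 of 2 probe sets rose), had 7.11, 7.27 and 7.19 in EWS-FLI1 and 6.28, 6.70 and 6.15 in control samples, a rise of 0.81 (SE 0.14, adjusted p = 0.00675). abca12, an ABC transporter of lipids in the epidermis, was the 1 of 15 ABC probe sets called, and fell by 0.78 (SE 0.11, adjusted p = 0.00305). Of 6 aquaporin probe sets for 5 genes, 2 fell (33.3% called, beside 11.8% of all probe sets). The water and glycerol channel gene aqp3a fell by 0.52 (adjusted p = 0.0334) and aqp12 by 0.51 (adjusted p = 0.0291). The EWS-FLI1 mean of aqp3a, 3.94, lay within the background reference. A second probe set of aqp12, above the reference, was not called (difference -0.31, adjusted p = 0.0856). Both calls were lost without any 1 EWS-FLI1 replicate or without control replicate 1 (highest adjusted p = 0.133 for aqp3a and 0.124 for aqp12). That of aqp12 was also lost without control replicate 3 and with the replicate block (adjusted p = 0.053 with the block). Of 19 probe sets for subunits of the sodium-potassium pump, which drives many sodium-coupled carriers, and 16 for subunits of the vacuolar proton pump, 0 were called by limma (2 lower and 1 higher at an unadjusted p under 0.05), with differences from -0.32 to 0.20 and from -0.20 to 0.27. Partner subunits of SLC proteins had 0 of 4 probe sets called by limma, and 0 at an unadjusted p under 0.05.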

How the data were processed

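The deposited values are log2 RMA values made by the authors, 1 per probe set and array. Per the submitters' processing notes they were computed by RMA with affy in R 2.2.0, and the log base was inferred from the range of 1.58 to 13.46. The 115 manufacturer controls among the 15617 probe sets were not tested. GEO's platform annotation named 1 gene for 10795 probe sets, and a RefSeq table (GRCz12tu), joined by Entrez identifier, gave current symbols and matched all 150 members. A two-sided moderated test of the group difference (lmFit, then eBayes, of limma 3.58.1 under R 4.3.3) was run on all 15502 others. In simulated data of that size, 200 probe sets were changed and both groups had the same spread. There the fit recovered 48% of changes of 0.5 and 98% of changes of 1, with 11 of 184 calls false. In the real data 1835 probe sets were called and control arrays were more variable, so these shares may not hold for them. The labels call the samples biological replicates, but not which clutches they came from, so p-values measure the spread between these pools. Plots were drawn with matplotlib 3.10.9 and exact tests run with scipy 1.17.1.

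Members, substrate classes by family number and the other lists were chosen with earlier results of these data known. The rule for named genes took up to 12 rises and 12 falls, the leading member of each class, genes with mixed probe sets, a and b pairs with a call, and up to 2 called genes of each other transport list. Other uncalled members were named for their known roles after their values were seen. Alternatives were a replicate block, no dim probe sets, other scalings, other priors, a stricter threshold, array weights, 1 probe set per gene, a minimum change, other background references and each array left out. Same-numbered arrays of the 2 groups correlated at -0.08, -0.10 and -0.08 in their deviations from the group means, so the numbers were not taken as pairs.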

Additional observations from a re-analysis of the deposited data

How the results depend on the processing

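Of the members, 17 were called, 9 up and 8 down. The counts stayed within 1.5 times of these with dim probe sets left out, other scalings, other priors, array weights, 1 probe set per gene, and without slc7a6os and slc4a1ap, a setting chosen after seeing the data. They did not with the replicate block (5 fell), at adjusted p under 0.01 (6 called, 4 up and 2 down) or with a minimum change of 1.2-fold (3 called, 3 up and 0 down). Nor did they in the fits without 1 EWS-FLI1 array, where called members ranged from 5 to 8, rises from 4 to 5 and falls from 1 to 3. In the fits without 1 control array the counts stayed within 1.5 times, with 14 to 20 called members, 8 rises and 6 to 12 falls. Over all probe sets, 598 were called with the minimum change, 826 at adjusted p under 0.01, and 883 to 2309 with 1 array left out, against 1835. The replicate block left 12 members called. The labels do not say whether same-numbered arrays belong together, and the numbers were not taken as pairs. The cause of these changes was not tested. The members' median difference stayed between -0.04 and 0.01, and members with a control mean within the background reference numbered 63 to 79. With 1 array left out, 45 of the 133 uncalled members (differences of 0.21 or less in size) and 0 of the 17 called ones changed sign. Of the probe sets in the rule for named genes these were 4: those of slc30a9's other probe sets ranged from -0.065 to 0.0983 and from -0.05 to 0.20, that of slc39a9's second from -0.11 to 0.025 and that of slc43a2b from -0.0617 to 0.135. Signals near background limit what the 70 dim members can show.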
